A study of Mus musculus with 18 samples.

Results

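The mitosis and spindle genes were a list of 40 symbols for proteins that drive cells into mitosis, build and check the spindle, separate the chromosomes and divide the cell. They were taken by symbol, as the genes whose probe sets the array annotation assigns to those names, and the list was drawn up with earlier results of these data known. Of the 40 genes, 39 had an annotated probe set and were tested, among 11547 genes tested in all. Ccnb1 was not analysed here. The levels were read from 18 Affymetrix Mouse Genome 430 2.0 arrays of RAW264.7 cells, a mouse macrophage line transformed by a murine leukemia virus that divides continuously in culture. The study treated this single line with material from Hypericum perforatum (St. John's wort) in the presence or absence of lipopolysaccharide (LPS), the bacterial cell wall component that activates macrophages. There were 6 groups of 3 arrays. The vehicle group received 0.1% DMSO. The fraction group received a sub-fraction of the plant extract at 10 µg/mL. The mixture group received 4 constituents together, amentoflavone at 0.07 µM, quercetin at 0.08 µM, chlorogenic acid at 0.2 µM and pseudohypericin at 0.03 µM. The other 3 groups received the same treatments with 10 µg/mL LPS. The labels give 8 h as the time of LPS induction. In all groups the treatments were added in darkness, and the plates were then left for 30 min in ambient light. The labels do not say whether the solvent was also present in the fraction and mixture cultures. Nor do they say whether a group's 3 arrays are 3 cultures, so the spread behind the p-values may be technical.

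Entry into mitosis is driven by cyclin A2 and B-type cyclins bound to Cdk1, which Cdc25 phosphatases switch on, together with the Polo-like and Aurora kinases. Spindle microtubules then attach to kinetochores, and the spindle checkpoint holds the anaphase-promoting complex in check until every chromosome is attached. Most of these genes are transcribed late in the cell cycle, and their promoters are known for pairing CCAAT boxes with a CHR element (cell cycle genes homology region) near the transcription start, through which the DREAM complex represses them in resting cells and the B-Myb and FoxM1 complexes activate them in dividing cells. Macrophages stimulated with LPS are known to slow or stop dividing.

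Promoter windows are shown for 5 genes whose measurements are described below. Plk1, Aurka and Cenpa had the smallest p-values for a difference between the fraction's effect with LPS and without it, none of which passed, and Plk4 and Ndc80 were the genes that rose with the fraction alone. The windows run 5′ to 3′ from 250 bases before to 50 bases after the annotated start, from the RefSeq annotation of build GRCm38.p6. Capitals mark CHR matches (TTTGAA or TTCGAA) and CCAAT boxes (CCAAT), which on the opposite strand read TTCAAA and ATTGG. The Plk1 window lies at chr7:122159185-122159484 on the plus strand, that of Aurka at chr2:172370521-172370820 on the minus strand, that of Cenpa at chr5:30666636-30666935 on the plus strand, that of Plk4 at chr3:40799701-40800000 on the plus strand and that of Ndc80 at chr17:71526808-71527107 on the minus strand. Each window spans the end of the upstream flank and the first transcribed bases of its gene.
Plk1: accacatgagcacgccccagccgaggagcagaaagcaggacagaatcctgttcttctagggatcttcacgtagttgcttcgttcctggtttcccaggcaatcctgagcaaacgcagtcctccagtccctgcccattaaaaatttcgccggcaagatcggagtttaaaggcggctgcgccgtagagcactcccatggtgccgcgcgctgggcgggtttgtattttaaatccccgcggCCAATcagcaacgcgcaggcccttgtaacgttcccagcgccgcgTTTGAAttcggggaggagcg
Aurka: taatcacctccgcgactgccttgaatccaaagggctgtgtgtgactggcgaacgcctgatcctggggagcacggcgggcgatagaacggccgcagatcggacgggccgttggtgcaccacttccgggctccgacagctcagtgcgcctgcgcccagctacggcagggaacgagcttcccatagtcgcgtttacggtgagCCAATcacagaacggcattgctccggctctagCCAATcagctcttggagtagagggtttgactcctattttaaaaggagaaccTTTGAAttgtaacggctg
Cenpa: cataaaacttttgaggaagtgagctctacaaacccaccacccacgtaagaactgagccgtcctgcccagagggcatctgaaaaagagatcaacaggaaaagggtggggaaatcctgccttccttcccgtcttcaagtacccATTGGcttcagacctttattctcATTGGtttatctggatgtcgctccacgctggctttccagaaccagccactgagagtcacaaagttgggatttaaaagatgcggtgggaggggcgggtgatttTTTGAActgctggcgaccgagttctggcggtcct
Plk4: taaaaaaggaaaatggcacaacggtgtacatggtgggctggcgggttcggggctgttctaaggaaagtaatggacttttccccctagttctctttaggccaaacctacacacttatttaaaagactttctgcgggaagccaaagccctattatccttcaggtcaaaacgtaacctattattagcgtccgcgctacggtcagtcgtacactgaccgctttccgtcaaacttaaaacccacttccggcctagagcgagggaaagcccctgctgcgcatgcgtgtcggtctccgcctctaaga
Ndc80: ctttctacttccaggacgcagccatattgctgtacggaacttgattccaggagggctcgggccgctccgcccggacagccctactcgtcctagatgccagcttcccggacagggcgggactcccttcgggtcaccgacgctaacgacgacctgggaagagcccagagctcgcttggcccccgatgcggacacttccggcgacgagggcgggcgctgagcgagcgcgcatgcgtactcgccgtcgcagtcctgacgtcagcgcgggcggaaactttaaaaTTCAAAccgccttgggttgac
The Plk1, Aurka and Cenpa windows held 1 CHR match each downstream of 1 or 2 CCAAT boxes, the Ndc80 window held a CHR match without a CCAAT box, and the Plk4 window held neither. Of the 39 tested genes, 34 had a window in this annotation, with 36 windows in all. A CHR match on either strand was present in 28 of the 36 windows (77.8%), against 19.2% of all 32851 windows of the same length. CCAAT boxes were found in 27 of them, against 37.4% of all windows, and both motifs together in 25 (69.4%), against 7.52%. A CHR match within 50 bases of the start was found in 26 of the 36 windows (72.2%), against 5.6% of all windows. These matches are letters in a window and not measured binding sites. By motif, the 26 genes with a CHR match had a median log2 difference of -0.67 after LPS in vehicle cells, and the 8 genes without one had -0.81. With the fraction alone these medians were -0.129 and -0.175, and with the fraction in the presence of LPS -0.32 and -0.3. A link between motif and response was not tested.

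All 39 genes were at or above the median signal of the array on all 18 arrays. The 9 macrophage markers examined, among them Cd68, Lyz2 and Csf1r, were also above it on every array. Of 18 markers of other cell types with a probe set, 11 were below it on every array, among them Cd3d, Col1a1, Pecam1 and Adipoq, and Cd3e and Cd79a reached it on 1 array each. The other 5, Cd8a, Col1a2, Kdr, Epcam and Krt8, reached it on 4 to 9 arrays, and the part of such signals in the results was not tested. Among the LPS-treated cells, the arrays numbered 1 stood apart for the mitosis genes. Array 1 was the highest of its group for 35 of the 39 genes in the vehicle group with LPS, for 33 in the fraction group with LPS and for 34 in the mixture group with LPS. The median deviation of the 39 genes on these 3 arrays was 0.30, 0.18 and 0.14 above the group mean on the log2 scale, while the median over all tested genes deviated by at most 0.04. In the vehicle, fraction and mixture groups without LPS, array 1 was the highest for 21, 26 and 20 of the 39 genes. The spread of the mitosis genes within a group was wide in the vehicle group with LPS, with a median SD of 0.27 on the log2 scale against 0.18 for all genes. The counts given first below use all 18 arrays, and the counts of the 39 genes without the 6 arrays numbered 1 are given with each comparison. The shares of all genes without those 6 arrays are not given, so these second counts are not set against a background.

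**Figure D1:**
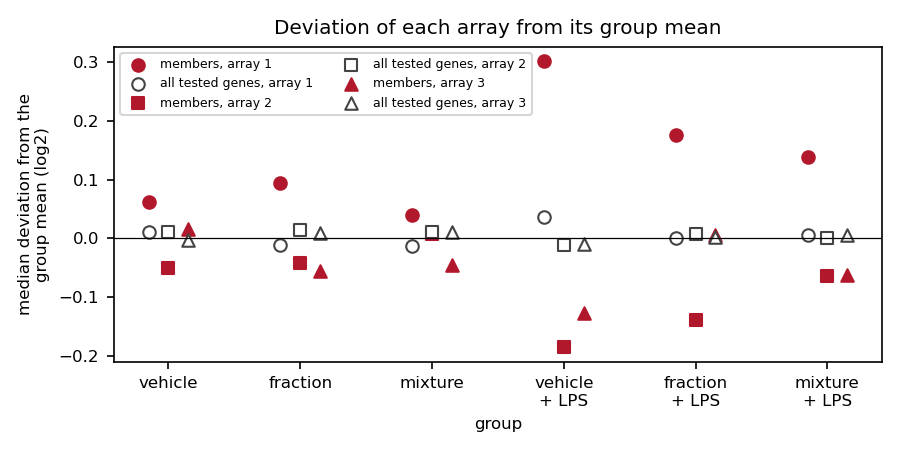
Median deviation of the 39 mitosis and spindle genes (filled symbols) and of all 11547 tested genes (open symbols) from the group mean, in log2 units, for each of the 18 arrays. The arrays numbered 1 of the 3 groups with LPS lie 0.14 to 0.30 above their group means for the mitosis genes.

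The order of the 6 group means is given here by count. The shares of all tested genes are not given, so no trait particular to these genes is read from it. The lowest group mean lay in the cells given both fraction and LPS for 35 of the 39 genes, in the vehicle cells with LPS for 2 and in the mixture cells with LPS for 2. The highest group mean lay in the mixture group without LPS for 21 genes, in the vehicle group for 9 and in the fraction group for 9. No gene differed between the mixture and vehicle groups past the threshold, as given below. In bulk RNA, a smaller share of dividing cells and less transcript per dividing cell cannot be told apart.

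**Figure D2:**
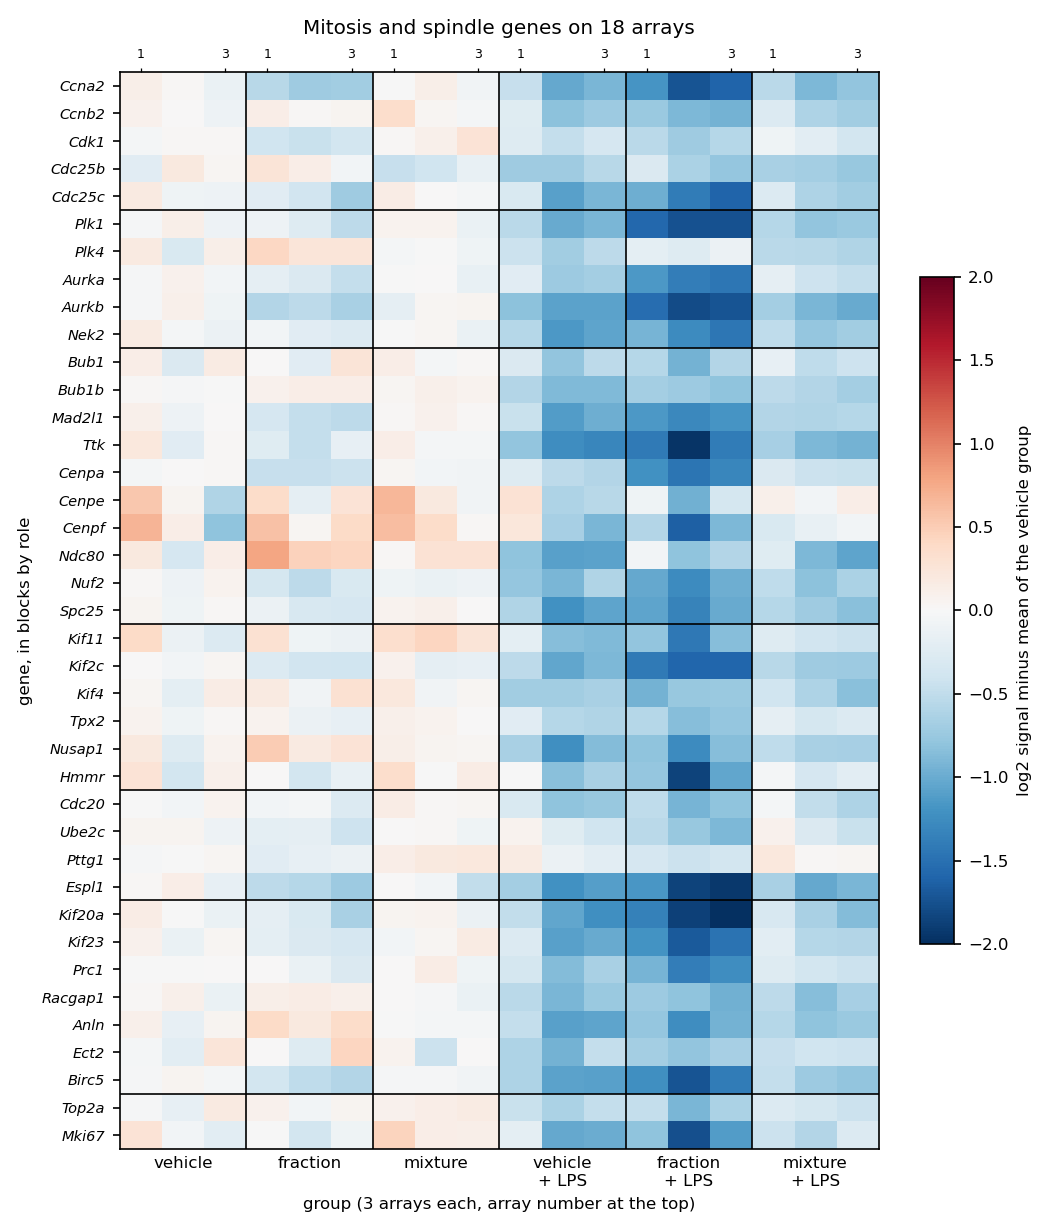
Log2 signal of the 39 mitosis and spindle genes on each of the 18 arrays, minus the mean of the vehicle group, with genes in blocks by role and arrays in blocks of 3 by group. Blue fills most of the 3 groups with LPS and is deepest in the fraction group with LPS, which held the lowest mean for 35 genes.

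LPS lowered most of the mitosis program in vehicle-treated macrophages. At an adjusted p under 0.05 (limma, Benjamini-Hochberg over all 11547 genes), 34 of the 39 genes fell and 0 rose, where 21.8% of all genes fell. The median log2 difference of the 39 genes was -0.73, against -0.08 for all tested genes. For 31 of the 39 genes all 3 LPS arrays lay below all 3 vehicle arrays, which held for 26.9% of all genes. By the brightest probe set of each gene, the falls were between 1.28-fold for Cdk1 and 2.16-fold for Ttk.

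Among the genes of mitotic entry, all 5 cyclin, Cdk1 and Cdc25 genes fell (Ccna2, Ccnb2, Cdk1, Cdc25b and Cdc25c). The MAS5 signal of Ccna2, which encodes cyclin A2, was 6273, 5930.2 and 5269 on the 3 vehicle arrays and 4202, 2856 and 3091 on the 3 arrays with LPS. These groups did not overlap, and the fall was 0.80 ± 0.14 on the log2 scale (1.74-fold, adjusted p = 0.000191). Cdk1, the kinase partner of the mitotic cyclins, had the smallest fall among the genes that passed. Its signal was 6332, 6613 and 6632 in vehicle cells and 5477, 4701 and 5172 with LPS. The difference was -0.35 ± 0.08 (adjusted p = 0.00298).

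All 5 mitotic kinase genes fell as well. Plk1, the Polo-like kinase of centrosome maturation and spindle assembly, read 2658, 2917 and 2511 in vehicle cells and 1849.9, 1341 and 1430.0 with LPS. Aurkb, the catalytic subunit of the chromosomal passenger complex, read 2219, 2423 and 2114 in vehicle cells and 1270.4, 1073 and 1075 with LPS. Neither gene's groups overlapped, with log2 differences of -0.82 ± 0.12 (adjusted p = 3.39e-05) for Plk1 and -0.99 ± 0.11 (adjusted p = 7.5e-07) for Aurkb. Aurka, the spindle pole Aurora kinase, read 3644, 3938 and 3593 in vehicle cells and 3191, 2242 and 2315.5 with LPS, where array 1 of the LPS group lay much closer to the vehicle arrays than the other two did. Its difference was -0.55 ± 0.12 (adjusted p = 0.00176). Nek2, a kinase of centrosome separation, fell by 0.93, and Plk4, the kinase that starts centriole duplication, fell by 0.55.

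Of the 10 kinetochore and checkpoint genes, 8 fell. Ttk, which encodes the checkpoint kinase Mps1, had the largest fall of the 39 genes by their brightest probe sets. Its signal was 1659, 1224 and 1458 in vehicle cells and 833, 606 and 582 with LPS, a fall of 1.11 ± 0.16 on the log2 scale (2.16-fold, adjusted p = 2.47e-05). Dimmer probe sets of Top2a, Ccna2 and Racgap1 fell further, with log2 differences of -1.69, -1.25 and -1.21. The Ndc80 complex, the microtubule-binding unit of the kinetochore, fell with all 3 of its listed subunits, Ndc80 by 0.99, Spc25 by 0.96 and Nuf2 by 0.77. The checkpoint genes Mad2l1, Bub1b and Bub1 fell by 0.85, 0.78 and 0.53, and Cenpa, the centromeric histone H3 variant, by 0.46. Cenpf and Cenpe, a matrix-associated kinetochore protein and a kinetochore kinesin, did not pass. Their values spread widely among the vehicle arrays themselves, 2019, 1394 and 722 for Cenpf and 1599, 1140.0 and 725 for Cenpe.

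Of the 6 kinesin and spindle microtubule genes, 5 fell, among them Nusap1 (by 0.91), Kif2c (by 0.82) and Tpx2 (by 0.47). Nusap1 bundles spindle microtubules, Kif2c depolymerizes them at centromeres and Tpx2 activates Aurora A on the spindle. Hmmr, a spindle assembly factor also known as a hyaluronan receptor, did not pass at -0.50 ± 0.23, although 2 dimmer probe sets of Hmmr fell, with log2 differences of -0.68 and -0.67. All 7 genes of the midzone and cytokinesis fell, led by Birc5 (survivin, by 0.93), the central spindle kinesin Kif20a (by 0.92) and Anln (anillin, the scaffold of the contractile ring, by 0.87). The anaphase genes divided: Espl1, which encodes separase, fell by 1.00 and Cdc20, the activator of the anaphase-promoting complex, by 0.62, whereas Pttg1 and Ube2c did not pass. Pttg1, which encodes securin, the inhibitor of separase, read 11358, 11463 and 11871 in vehicle cells and 12919.7, 10714 and 9972.5 with LPS, a difference of -0.05 with a 95% interval of -0.22 to 0.11. Both chromosome genes fell, Top2a (DNA topoisomerase II alpha) by 0.52 and Mki67 (the Ki-67 antigen) by 0.74.

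The other probe sets of these genes moved the same way after LPS. Of the 34 genes that fell, 19 had at least 1 more kept probe set, all of the others lay below 0 for all 19 genes, and at least 1 of them passed the threshold for 15. Without the 6 arrays numbered 1, 35 genes fell, with a median of -0.78. Centring each array on the median of the tested genes moved the all-gene median of this comparison up by 0.19 and left 30 genes that fell.

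With the fraction alone, without LPS, 9 of the 39 genes fell and 2 rose, where 15.3% of all genes fell and 15.9% rose, and the median log2 difference was -0.16. The 9 genes were Ccna2, Espl1, Aurkb, Birc5, Cenpa, Mad2l1, Cdk1, Nuf2 and Kif2c. The share that fell, 9 of 39, was not far from the background share. Every comparison of fraction, mixture or LPS with vehicle cells without LPS uses the same 3 vehicle arrays.

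Ccna2 had the largest fall among them. Its 3 fraction arrays read 3941, 3566 and 3576, all below the 3 vehicle arrays, with a difference of -0.65 ± 0.14 (1.57-fold, adjusted p = 0.00129). A dimmer probe set of Ccna2 gave -0.19 and did not pass. Cdk1 read 4928, 4808 and 5048.5 in fraction cells, below every vehicle array, and differed by -0.41 ± 0.08 (adjusted p = 0.00103). The remaining cyclin and Cdc25 genes did not pass, among them Ccnb2 at 0.07 ± 0.13.

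Both genes of the chromosomal passenger complex on the list fell: Aurkb by 0.59 ± 0.11 (adjusted p = 0.000274) and Birc5 by 0.49 ± 0.12 (adjusted p = 0.00545). Aurkb read 1500.0, 1559.5 and 1433 in fraction cells, with no overlap with the vehicle arrays, and its second probe set fell by 0.65. Cenpa read 4288, 4279 and 4403 with the fraction against 5770.3, 5926 and 6025.5 without it. By this brightest probe set the separation of these 2 groups was wide relative to their spread (-0.45 ± 0.09, limma, adjusted p = 0.000456). A dimmer probe set of Cenpa gave 0.395 and did not pass, and the call was lost with the mean of the gene's probe sets. Espl1, Mad2l1, Nuf2 and Kif2c fell by 0.61, 0.44, 0.39 and 0.35. The call of Kif2c was lost in 5 of 31 alternative settings.

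Several of the best-known mitotic markers were not among the genes that passed. Plk1 read 2497, 2254 and 1877 with the fraction, all below the vehicle arrays, at -0.29 ± 0.12 (adjusted p = 0.0723). Aurka was at -0.32 ± 0.12 (adjusted p = 0.0557), with fraction arrays of 3269, 3047 and 2688. Cdc20 read 7658, 7682 and 6546 with the fraction and Mki67 read 6689, 5208 and 6372, both overlapping the vehicle arrays. Top2a read 6905, 6274.5 and 6784, at 0.03 with a 95% interval of -0.18 to 0.24, whereas a dimmer Top2a probe set fell by 0.54 (adjusted p = 0.0205).

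The 2 genes that rose were Plk4 and Ndc80. Plk4 read 2371, 1693 and 2257 in vehicle cells and 2771, 2465 and 2467 with the fraction, a rise of 0.30 ± 0.11 (1.23-fold, adjusted p = 0.0378). The Plk4 probe set is of a type open to cross-hybridization, as are those used for Aurkb and Kif2c among the genes that fell. The other 2 kept probe sets of Plk4 gave 0.08 and 0.04 and did not pass. Ndc80 read 551, 384 and 531 in vehicle cells and 830.5, 667 and 653 with the fraction, a rise of 0.56 ± 0.21 (1.48-fold, adjusted p = 0.0453). The call of Ndc80 was lost in 18 of 31 alternative settings. Within the Ndc80 complex the 3 listed subunits thus differed in direction, with Nuf2 lower, Ndc80 higher and Spc25 at -0.26 ± 0.13 without passing.

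Without the 6 arrays numbered 1, 13 genes fell and 2 rose. The total of 11 genes became 7 when array 3 of the fraction group was left out. Of the 9 genes that fell, 4 had another kept probe set; all of the others lay below 0 for 2 of these genes, and another one passed for 1, Aurkb. Of the 28 genes that did not pass, 18 had another kept probe set, and for 2 of them, Top2a and Pttg1, at least 1 of these fell.

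In LPS-treated cells the fraction lowered more of the 39 genes, a larger count that the other mitosis genes given further on did not share. Of the 39, 19 fell and 1 rose, where 12.7% of all genes fell and 11.1% rose, and the median log2 difference was -0.32 against -0.02 for all genes. The largest falls were those of Cenpa, Plk1, Kif20a and Aurka, from 1.72-fold to 1.82-fold. All 9 genes that fell with the fraction alone also fell here, which is 100% of that list and 47.4% of the 19. The same share among all tested genes is not given here, so nothing is read from this overlap. The other 10 genes that fell here were Plk1, Aurka, Cdc25c, Ttk, Hmmr, Ube2c, Pttg1, Kif20a, Kif23 and Prc1, and whether the effect itself differed from that without LPS is given further on as a test of the interaction. Pttg1 belongs to these 10 by its brightest probe set, and its 2 dimmer ones also fell with the fraction alone, with log2 differences of -0.72 (adjusted p = 0.0163) and -0.42 (adjusted p = 0.0013).

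Cenpa read 4933, 4103.5 and 3927 on the vehicle arrays with LPS and 2559, 2142.5 and 2402 on the fraction arrays with LPS. Plk1 read 911, 800.3 and 808 with both treatments, against 1849.9, 1341 and 1430.0 with LPS alone. Aurka read 1674.5, 1422 and 1366, against 3191, 2242 and 2315.5. The groups did not overlap for any of the 3 genes, with log2 differences of -0.86 ± 0.09 for Cenpa (adjusted p = 5.3e-07), -0.86 ± 0.12 for Plk1 (adjusted p = 3.75e-05) and -0.78 ± 0.12 for Aurka (adjusted p = 0.00011).

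By role, 3 of the 5 kinase genes fell (Plk1, Aurka and Aurkb) and 3 of the 5 entry genes (Ccna2, Cdk1 and Cdc25c). Ccna2 read 2558, 1761 and 1913 and fell by 0.70 ± 0.14, and Aurkb read 778, 649 and 682 and fell by 0.70 ± 0.11 (adjusted p = 8.37e-05). The dimmer Ccna2 probe set gave -0.27 and did not pass. Cdk1 read 4472, 3970.3 and 4409 and fell by 0.26, a call that 9 of 31 alternative settings ended. Of the 7 midzone and cytokinesis genes, 4 fell, namely Kif20a by 0.83, the centralspindlin kinesin Kif23 by 0.66, the antiparallel microtubule bundler Prc1 by 0.56 and Birc5 by 0.53. The cytokinesis genes Racgap1 and Ect2 and the ring scaffold Anln did not pass, at -0.10, -0.04 and -0.11.

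Of the 4 anaphase genes, 3 fell: Espl1 by 0.65, Ube2c (the ubiquitin-conjugating enzyme of the anaphase-promoting complex) by 0.54 and Pttg1 by 0.32. Ube2c and Pttg1 were genes on which LPS alone had shown no passing difference. Cdc20 did not pass at -0.13 ± 0.14, with arrays of 5549, 4177 and 4552 against 6412.5, 4554 and 4712. Of the 10 kinetochore and checkpoint genes, 4 fell (Cenpa, Ttk, Mad2l1 and Nuf2), and of the 6 spindle genes 2 fell (Hmmr by 0.72 and Kif2c by 0.71). Neither chromosome gene passed: Top2a was at -0.16 ± 0.10, with arrays of 4648, 3456 and 4195 against 4795, 4171 and 4656, and Mki67 at -0.49 ± 0.21, with arrays of 3852, 1993.5 and 3128.5 against 5878, 3321 and 3409.7.

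Plk4 was again the gene that rose. It read 1555.5, 1291.5 and 1446 with LPS alone and 1814, 1739 and 1927 with both treatments, so that the groups did not overlap, and the rise was 0.36 ± 0.11 (1.28-fold, adjusted p = 0.0188). The other 2 Plk4 probe sets gave -0.02 and 0.17 and did not pass. Ndc80 was at 0.51 ± 0.21 (adjusted p = 0.0849), with arrays of 467, 275 and 323 against 276.5, 226.5 and 230.5. Of the 19 genes that fell, 10 had another kept probe set, which lay below 0 for 9 of them and passed for 5.

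**Figure D3:**
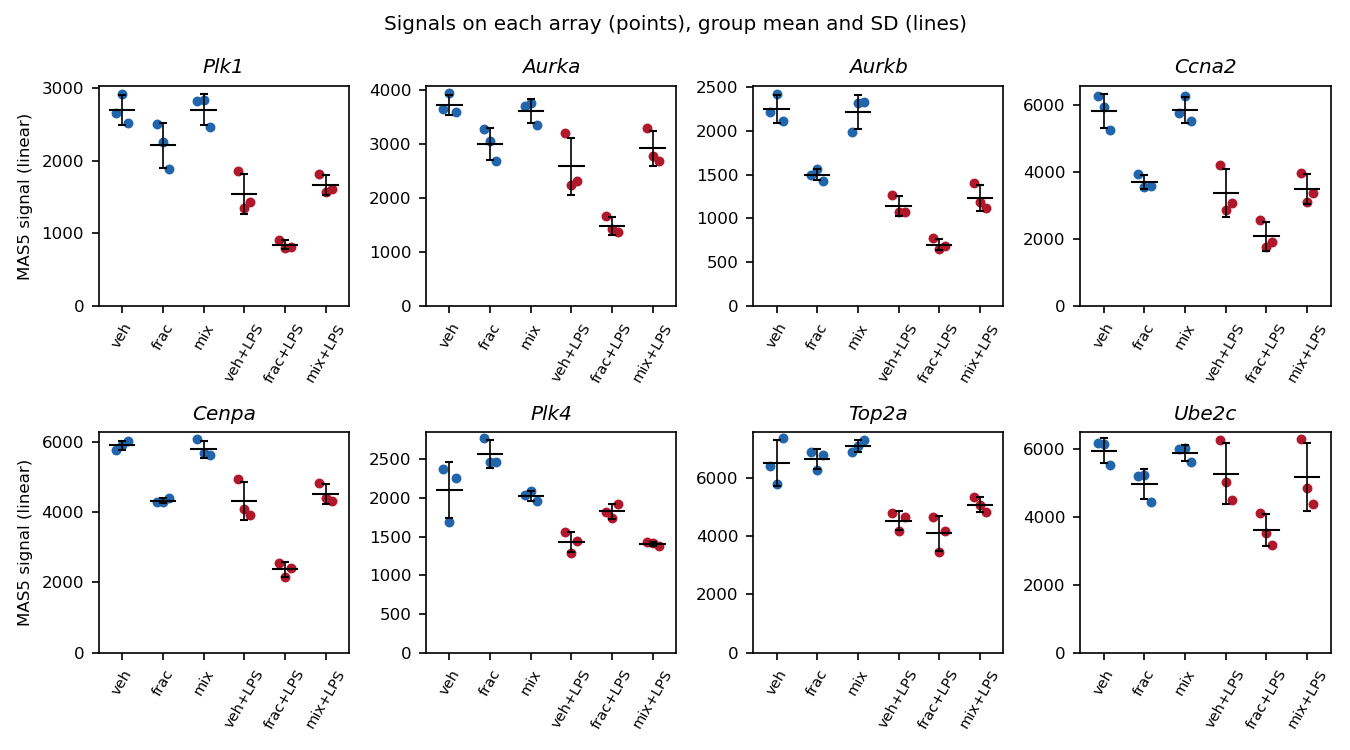
MAS5 signal (linear scale) of 8 mitosis and spindle genes on each of the 18 arrays, with the group mean and SD as lines, blue without and red with LPS. Plk1, Aurka, Aurkb, Ccna2, Cenpa and Ube2c are lowest in the fraction group with LPS, whereas Plk4 is higher there than in the other 2 groups with LPS.

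The size of this effect rested in part on array 1 of the vehicle group with LPS. Without it, 12 genes fell and the median was -0.21; without array 2 of the fraction group with LPS, 12 genes fell. Without the 6 arrays numbered 1, 15 genes fell and 1 rose, with a median of -0.24. Set against the array of the same number, the median difference was -0.49, -0.33 and -0.21 for arrays 1, 2 and 3, with 36, 33 and 30 of the 39 genes below 0.

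**Figure D4:**
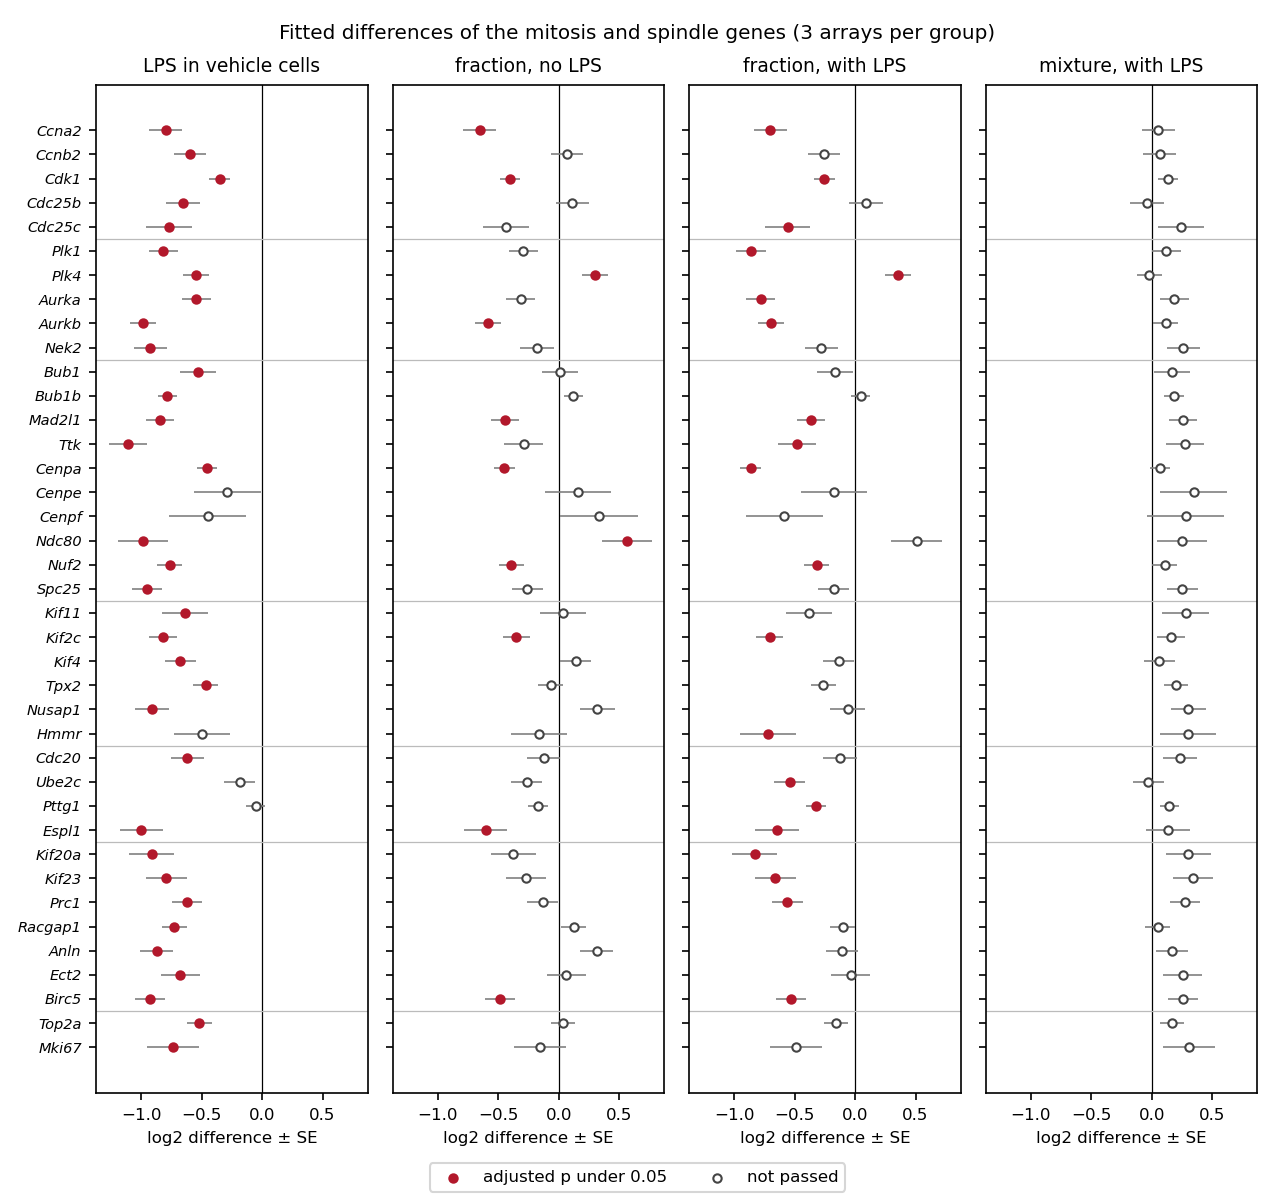
Fitted log2 differences of the 39 mitosis and spindle genes with their standard errors, in 4 comparisons with 3 arrays per group; filled points passed an adjusted p of 0.05. In the panel for LPS 34 genes are filled, in the panels for the fraction 11 and 20, and in the panel for the mixture 0.

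Whether the fraction acted differently in the presence of LPS was tested as an interaction. No mitosis gene passed (limma, 0 of 39, where 2.14% of all genes passed in either direction), also without the 6 arrays numbered 1. An unadjusted p under 0.05 was found for 6 genes, all with a lower value for the fraction in the presence of LPS. The share of all genes at that level is not given here, so nothing is read from this count. The smallest p-values were those of Cenpa (-0.41 ± 0.12, adjusted p = 0.0892), Plk1 (-0.57 ± 0.17, adjusted p = 0.1) and Aurka (-0.47 ± 0.17, adjusted p = 0.205). For Plk1 the 95% interval of the difference between the effects ran from -0.93 to -0.21. By sign alone, 24 of the 39 genes lay below 0 for the fraction both without and with LPS, 11 lay above 0 without and below 0 with LPS, and 4 lay above 0 in both.

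The mixture of 4 constituents changed no mitosis gene past the threshold. Without LPS 0 of 39 passed (limma, where 0.0% of all genes passed), 1 gene was higher and 1 lower at an unadjusted p under 0.05, and the median log2 difference was 0.04. The genes with the smallest p-values were Cdc25b (-0.34 ± 0.14), Pttg1 (0.18 ± 0.08) and Kif11 (0.34 ± 0.19), the last a kinesin that pushes the spindle poles apart. Plk1 read 2812, 2833 and 2459 with the mixture, overlapping the vehicle arrays, and the 95% interval of its difference ran from -0.25 to 0.26. Aurkb read 1990.0, 2321 and 2333 and Cdk1 read 6615, 7002 and 7894, also overlapping the vehicle arrays.

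With LPS, again 0 of 39 genes passed (limma, where 0.0% of all genes passed). The median log2 difference was 0.19, and 5 genes, Bub1b, Mad2l1, Prc1, Birc5 and Nusap1, were higher at an unadjusted p under 0.05, with 0 lower. The shares of all genes at that unadjusted level are not given here, so nothing is read from such counts for the mixture. Mad2l1 read 3838, 3798 and 3884 against 4225, 2667 and 2929 with LPS alone, where array 1 of the LPS group lay above all 3 mixture arrays. Its difference was 0.26 ± 0.12 (adjusted p = 0.589). Without the 6 arrays numbered 1, Mad2l1 passed as higher and the median was 0.25. Without array 1 of the vehicle group with LPS 2 genes rose and the median was 0.32, and without array 1 of the mixture group with LPS the median was 0.10. The intervals of Plk1 (-0.13 to 0.38), Aurka (-0.07 to 0.44) and Cenpa (-0.11 to 0.25) bound the effect of the mixture in these arrays. The mixture by LPS interaction passed for 0 of 39 genes (limma, where 0.0% of all genes passed, and 0 genes at an unadjusted p under 0.05). For the mixture without LPS and for this interaction, 0 of 39 also passed without the 6 arrays numbered 1.

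The fraction and the mixture were also set directly against each other, with and without LPS. With LPS, 26 of the 39 genes were lower with the fraction, where 16.2% of all genes were lower. Plk4 was higher, so that 27 genes passed, where 28.2% of all genes passed in either direction, and the median was -0.53. Kif20a read 728, 507 and 454.5 with fraction and LPS and 1482, 1186 and 1012 with mixture and LPS. Plk1 read 911, 800.3 and 808 against 1815, 1561 and 1613. Neither gene's groups overlapped, and the differences were -1.14 ± 0.19 for Kif20a (2.20-fold, adjusted p = 0.000146) and -0.99 ± 0.12 for Plk1 (1.98-fold, adjusted p = 6.21e-06). Hmmr, Kif23 and Aurka were lower by 2.03-fold, 2.00-fold and 1.96-fold, and Mki67 and Top2a were lower by 1.74-fold and 1.25-fold. Without LPS, 8 genes were lower and 2 higher with the fraction (15.4% and 17.0% of all genes), led by Ccna2 (-0.66), Aurkb (-0.56) and Cdk1 (-0.54), with Cdc25b and Plk4 the genes that were higher. Without the 6 arrays numbered 1, 28 genes were lower and 1 higher with LPS, and 13 lower and 0 higher without it. Whether the contrast of fraction with mixture differed between cells with and without LPS was not tested. The fraction was dosed by mass and the mixture by the concentration of its constituents, so the doses are not matched.

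LPS lowered the program under each treatment. In fraction cells 37 of the 39 genes fell, where 25.8% of all genes fell, with a median of -0.96. In mixture cells 30 fell, where 16.3% of all genes fell, with a median of -0.58. In fraction cells the 2 genes that did not pass were Cenpe and Cdk1, and Plk1 fell by 1.39, Kif20a by 1.37, Cenpf by 1.37, Ttk by 1.30 and Anln by 1.29. In mixture cells Ndc80 fell by 0.93, Ttk by 0.85, Aurkb by 0.84, Spc25 by 0.76 and Ccna2 by 0.75. With the 6 arrays numbered 1 left out, 38 genes fell in fraction cells and 33 in mixture cells. Centred on the median of the tested genes, which shifted the all-gene median up by 0.19 in fraction cells and 0.13 in mixture cells, the medians of the mitosis genes stayed below 0, at -0.76 in fraction cells.

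Other genes of the cell cycle, in lists apart from the 39, are given for comparison by count and value. Each count is to be set beside the shares of all tested genes. With LPS 21.8% of all genes fell. With the fraction alone 15.3% fell and 15.9% rose, and with the fraction in the presence of LPS 12.7% fell and 11.1% rose. Foxm1, the transcription factor of late cell cycle genes, read 845, 865 and 674 in vehicle cells and 265, 325 and 304 with LPS, a fall of 1.41 ± 0.16, and it fell by 0.63 with the fraction alone and by 0.62 with the fraction in the presence of LPS. Among 24 regulators of late cell cycle transcription, 16 fell and 1 rose with LPS, 11 fell and 3 rose with the fraction, and 7 fell and 0 rose with the fraction in the presence of LPS. Mybl2, which encodes B-Myb, fell by 1.20 with the fraction and by 0.70 with the fraction in the presence of LPS. Myc rose by 3.46 with LPS and by 1.28 with the fraction. Of 67 other mitosis genes, 52 fell and 1 rose with LPS (median -0.75), 14 fell and 5 rose with the fraction, and 12 fell and 7 rose with the fraction in the presence of LPS. Unlike for the 39, the count of falls with the fraction was not larger in the presence of LPS for these 67 genes.

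Among 16 inhibitors of cyclin-dependent kinases and brakes of mitotic entry, 8 fell and 5 rose with LPS, 6 fell and 2 rose with the fraction, and 5 fell and 1 rose with the fraction in the presence of LPS. Cdkn1a, which encodes the inhibitor p21, read 5597, 7224 and 6510.0 in vehicle cells and 8311, 10082 and 9715 with LPS, a rise of 0.54 ± 0.11 (adjusted p = 0.00063), and did not pass for the fraction (-0.10) or for the fraction in the presence of LPS (0.20). Gadd45a, a stress-induced gene whose product can inhibit Cdk1 and cyclin B, rose by 3.63 ± 0.27 with the fraction (adjusted p = 6.55e-09) and by 2.90 with the fraction in the presence of LPS. Wee1, the kinase that holds Cdk1 inactive, fell by 1.58 with LPS, by 1.03 with the fraction and by 0.64 with the fraction in the presence of LPS. Of 45 genes of the G1/S transition and of DNA replication, 42 fell and 1 rose with LPS (median -0.87). With the fraction alone 33 fell and 1 rose (median -0.58), where 9 of the 39 mitosis genes fell. No test compares the lists. The count of this list for the fraction in the presence of LPS is not given here. By the interaction test, 11 of the 45 had a higher value for the fraction in the presence of LPS, as given further on.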

How the data were processed

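Affymetrix Mouse Genome 430 2.0 arrays measured the total RNA of RAW264.7 cells. The authors deposited a linear signal intensity for each of 45101 probe sets, computed with MAS5 per the submitters' processing notes (version not stated there). The trimmed mean (2% off each end) was 500.0 on every array, with a median between 52.1 and 66.8, so each array had been scaled to a common mean before deposit, and differences are relative to the bulk of bright probe sets. The number of arrays limits the precision, and detection calls were not used here.

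The 64 control probe sets were removed, which left 34945 with 1 gene symbol, 932 with several and 9160 with none, and no gene was named from a probe set with several. Symbols were updated through Entrez IDs for 34741 probe sets. Signals under 1 were set to 1 and log2-transformed. The filter kept the 25612 probe sets with at least 3 of 18 signals at or above the median of their array, and the brightest kept probe set stood for each of 11547 genes. The 39 mitosis and spindle genes had 83 probe sets, of which 76 were kept; 23 genes had more than 1, and none of these had probe sets called in opposite directions in the 3 main comparisons. The probe sets used for 8 genes (Aurkb, Cdc20, Cdc25c, Kif2c, Nek2, Plk4, Prc1 and Pttg1) are of a type open to cross-hybridization.

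A linear model with 6 group means was fitted to all 18 arrays in limma 3.58.1 (R 4.3.3; eBayes with an intensity trend, two-sided, 12 residual degrees of freedom) with 11 contrasts. P-values were adjusted by Benjamini-Hochberg over all 11547 genes, and genes with an adjusted p under 0.05 were said to have risen or fallen. Errors beside a log2 difference are standard errors, and intervals are 95% intervals of the fit. The code was tested on simulated data. The members and lists were chosen with earlier results of these data known. Any of the 39 genes could be named; full statistics went to those past the threshold with the largest changes (up to 10 in the 3 main comparisons and 5 in others, or the 3 smallest p-values where none passed), with Plk1, Cdk1, Cdc20, Aurka, Aurkb, Top2a, Mki67, Cdkn1a and Foxm1 throughout and up to 4 genes from each comparison list. Array values of other genes were chosen after their values were seen. Array numbers recur in all 6 groups. The deviations of same-numbered arrays from their group means correlated between 0.018 and 0.17, all above 0. Those of differently numbered arrays of different groups correlated between -0.13 and 0.05. The same-number correlations were not above 0.1 for every pair, so arrays were not paired in the main fit. Quantile normalization, median centring, a pseudocount of 32, other filters, other handling of probe sets, fits on the compared arrays alone, a replicate block and left-out arrays were the alternatives. Median centring on all probe sets was added after seeing the data. Promoter windows came from RefSeq (GRCm38.p6).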

Additional observations from a re-analysis of the deposited data

Results flagged for a closer look

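Some cell cycle genes outside the 39 mitosis genes had a fraction effect that differed with and without LPS by the interaction test, and their counts are given here as values, where 2.14% of all genes passed that test in either direction. Among 67 other mitosis genes, 1 passed with a higher value in the presence of LPS. This was Trip13, the ATPase that remodels the checkpoint protein Mad2, which was lower with the fraction alone (-0.34 ± 0.10) and higher with the fraction in the presence of LPS (0.33 ± 0.10), an interaction of 0.67 ± 0.13 (limma, adjusted p = 0.0121). Among 16 brakes of mitotic entry, 1 passed with a higher value and 3 with a lower one. The higher one was Chek1, a checkpoint kinase (0.74 ± 0.17, adjusted p = 0.0231). The lower ones were Ccng2 (-1.58 ± 0.41, adjusted p = 0.0476), Gadd45g (-1.57 ± 0.35, adjusted p = 0.0225) and the Cdk4 and Cdk6 inhibitor Cdkn2d (-0.81 ± 0.16, adjusted p = 0.0115). Among 45 genes of the G1/S transition and DNA replication, 11 passed, all with a higher value in the presence of LPS, where 0 of the 39 mitosis genes passed. Tyms, which makes thymidylate, differed most: it was at -0.93 with the fraction alone and at 0.87 with the fraction in the presence of LPS (interaction 1.81 ± 0.36, adjusted p = 0.01). Cdc6, Mcm10 and Rpa2, which license or copy DNA, had interactions of 1.48, 1.16 and 1.15.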

How the results depend on the processing

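The medians of the mitosis genes with LPS and with the fraction, with or without LPS, lay below 0 in every alternative run, and the counts moved. Centring each array on the median of the tested genes turned the median after LPS from -0.73 to -0.54 in vehicle cells and from -0.96 to -0.76 in fraction cells. It also raised the genes lower with fraction than with mixture, without LPS, from 8 to 14 (16 in all), and left 1 gene that rose with the fraction alone. Counted over every kept probe set, 53 probe sets fell with LPS in vehicle cells, 58 in fraction cells and 46 in mixture cells, the count being over more features. For the fraction without LPS, where 2 genes rose, 1 rose under quantile normalization, without the filter, with low signals set to the array median and over every probe set, and 0 without the eBayes trend or with centring on all probe sets. For the fraction with LPS, 13 genes passed with centring on all probe sets (0 higher), 12 with the compared arrays alone (11 lower), and 0 rose with the mean of a gene's probe sets. Between fraction and mixture without LPS, 18 genes passed with the compared arrays alone (15 lower), and 0 were higher with centring on all probe sets and 1 with the mean of the probe sets; with LPS 0 were higher under both of these. Without the 6 arrays numbered 1, 1 gene (Mad2l1) was higher with mixture and LPS than with LPS alone, and 13 genes were lower and 0 higher with fraction than with mixture without LPS. Centring on all probe sets gave a median of 0.31 for the mixture by LPS interaction. With the replicate number as a replicate block, 18 genes passed for the fraction without LPS (14 lower, 4 higher), 2 were higher for the fraction with LPS, 22 passed for fraction against mixture without LPS (18 lower, 4 higher) and 3 passed for the fraction by LPS interaction, all 3 lower (Plk1, Aurka and Cenpa); the array numbers are not known to pair the samples. Leaving out 1 array at a time, the genes past the threshold numbered 31 to 35 for LPS in vehicle cells (median -0.83 to -0.63), 36 to 37 in fraction cells and 23 to 32 in mixture cells. They numbered 7 to 16 for the fraction without LPS (7 to 13 lower, 0 to 3 higher; median -0.23 to -0.13), 13 to 23 with LPS (12 to 22 lower, 0 to 2 higher; median -0.40 to -0.21), 0 for the mixture without LPS (median -0.00 to 0.08) and 0 to 2 with LPS (all higher; median 0.10 to 0.32). Between fraction and mixture they numbered 8 to 17 without LPS (7 to 14 lower, 0 to 3 higher) and 22 to 30 with LPS (21 to 29 lower, 0 to 1 higher), the 17 without array 1 of the vehicle group with LPS, which enters through the shared spread. The interaction medians ranged from -0.28 to -0.07 for the fraction and from 0.07 to 0.28 for the mixture, with 0 genes past the threshold. Of 4557 alternative values of the named genes, 4430 kept their side of the threshold, 77 lost it, 50 gained it and 0 called values changed sign; 68 values that did not pass changed sign. Apart from what the settings themselves change, the cause of these shifts was not tested. With 3 arrays per group, small differences such as those of the mixture could not be separated from 0.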

Other observations

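The 67 other mitosis genes and the 24 regulators held further changes, given here by gene. With LPS in vehicle cells, Fbxo5, which encodes the inhibitor Emi1 of the anaphase-promoting complex, fell by 1.80 ± 0.18 (limma, adjusted p = 4.04e-07), and Pimreg, Depdc1b and Cdca5 fell, with log2 differences of -1.75, -1.53 and -1.45. With the fraction alone, Ccnf (cyclin F), Troap and Mis12, a kinetochore gene, fell by 0.78, 0.73 and 0.70, whereas Smc4, a condensin subunit, rose by 0.70 ± 0.17 (adjusted p = 0.00411). With the fraction in the presence of LPS, Cks2, which encodes a small partner of Cdk1, fell by 0.85 ± 0.10 (adjusted p = 5.15e-06), and Kif22, Troap and Cdca5 fell by 0.80, 0.75 and 0.73. The repressors E2f7 and E2f8 fell in all 3 comparisons, with log2 differences of -2.11 and -2.40 with LPS, -1.19 and -1.27 with the fraction alone and -0.72 and -0.82 with the fraction in the presence of LPS.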
